A study of Mus musculus with 12 samples.

Results

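Regulatory T cells (Treg) and conventional CD4 T cells (Tconv) of the spleen were compared in young, unperturbed mice to describe the transcripts that set the cell types apart. The comparison used the libraries titled young Treg 1 and 2 and young Tconv 1 and 2, which are 4 of the 12 libraries of the study. All 4 came from wild-type C57BL/6 mice of 2 months. Treg had been sorted by flow cytometry as CD4+CD25+ cells and Tconv as CD4+ cells, and RNA was extracted with an RNeasy column kit and enriched for poly(A) before library preparation. The stated Tconv gate names no marker besides CD4, so Treg are not stated to have been kept out of it. The other 8 libraries are pairs of Treg and Tconv from aged wild-type mice, labelled as over 18 months old, and from mice of 2 months labelled Dcaf1-deficient, and they served here only as further libraries of the same cell types. The labels name neither the Cre line nor the allele behind that deficiency. Nothing in the labels says that the libraries of a group came from separate mice, so the p-values measure the spread between these libraries, which may be technical.

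Treg are CD4 T cells that restrain immune responses. Their identity rests on the X-linked forkhead transcription factor Foxp3, and they depend on interleukin 2, which they bind through a high-affinity receptor whose alpha chain is CD25. The receptor signals through the kinases Jak1 and Jak3 to STAT5, which turns on feedback inhibitors of the SOCS family and maintains Foxp3. Conventional CD4 T cells of an unimmunised spleen are mostly naive cells, which recirculate and express ligands such as CD40 ligand when they help B cells.

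The 4 libraries held 18937218 to 22617023 estimated counts each. At that depth 3 counts, the limit that a count of 0 allows, correspond to 0.13 to 0.165 CPM per library, for counting error only. CPM is the level used throughout, the gene's share of the library's count total after TMM scaling, listed as library 1 and library 2 of a group. Differences are log2 fold changes of Treg over Tconv from an edgeR quasi-likelihood fit over all 12 libraries. A gene is called when its Benjamini-Hochberg adjusted p over all 9495 genes tested is below 0.05. Genes outside the naming rule given under processing were chosen after their values were seen; they are Id3, Tbx21, Il10, Il2, Havcr2, Gbp11, Siglech, Klrd1, Cd40, Itgb3, Itgb5, Il1rl1, Pde4b, Pde4d, Cybb, Ncf1, Top2a, Bcl2l1, Rpl29, Ntn1 and those said to be so where they appear.

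The second library of each group carried transcripts of other blood cells. The summed level of 6 B cell markers, among them Cd79a and Ms4a1, was 79.7 and 2398 CPM in Treg 1 and 2 and 38.2 and 182 CPM in Tconv 1 and 2. For 8 macrophage markers, C1qa and Csf1r among them, the sums were 116 and 3286 CPM in Treg and 18.5 and 228 CPM in Tconv. For 8 erythroid markers they were 26.7 and 1592 CPM in Treg and 12.3 and 121 CPM in Tconv, and for 3 plasma cell markers 144 and 2285 CPM in Treg and 109 and 282 CPM in Tconv. Dendritic cell markers went the other way, with 5 genes summing to 6.69 and 48.9 CPM in Treg and 97.0 and 279 CPM in Tconv, and so did 3 markers of CD8 and natural killer cells at 6.64 and 29.5 against 55.1 and 81.4 CPM. Neutrophil markers were low, summing to 6.62 to 85.5 CPM, with Ly6g at 0 in all 4 libraries, and the platelet sum was 3.74 to 6.92 CPM. No marker of another cell type was called by edgeR, while DESeq2 called the dendritic cell marker Siglech and the natural killer cell marker Klrd1, both lower in Treg. The part of these transcripts in the results was not tested. Tconv 2 is also the only one of the 4 libraries whose title carries the tag L5 instead of L4, a tag whose meaning is not stated.

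**Figure D1:**
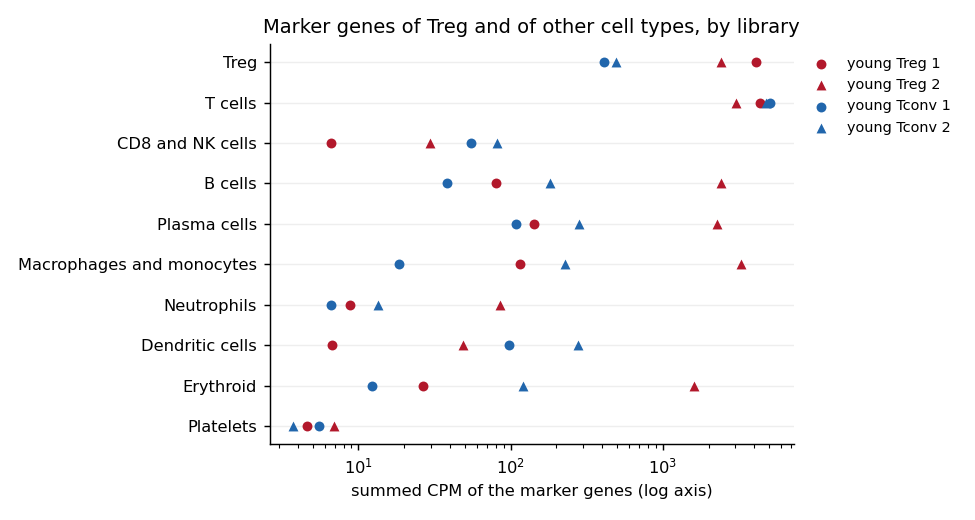
Summed CPM of the marker genes of Treg and of other cell types (rows, log axis) in the 4 young libraries; red marks Treg, blue Tconv, circles library 1 and triangles library 2. Treg 2 stands highest for B cell, plasma cell, macrophage, neutrophil and erythroid markers (2398 CPM for B cells against 79.7 in Treg 1), while dendritic cell markers are highest in Tconv 2 at 279 CPM. The Treg row sums Foxp3, Il2ra, Ikzf2 and Cd40lg.

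The label of the cells held in all 4 libraries. Foxp3 was at 1428 and 812 CPM in Treg and at 47.7 and 78.4 CPM in Tconv. Il2ra, which encodes CD25 and is the marker by which Treg were sorted, was at 1337 and 887 CPM in Treg and at 31.8 and 63.2 CPM in Tconv. Ikzf2, which encodes the Treg factor Helios, was at 1267 and 671 CPM against 89.1 and 111 CPM. All 3 genes were higher in each Treg library than in each Tconv library, and in each Treg 1 stood above Treg 2. Cd40lg, the helper ligand, was at 50.1 and 37.8 CPM in Treg and at 240 and 239 CPM in Tconv, again with no overlap. The T cell markers Cd3e, Cd3g, Cd4, Lck and Cd2 summed to 4364 and 3020 CPM in Treg and 5067 and 4754 CPM in Tconv. In bulk samples such as these, fewer cells of a type and less RNA per cell cannot be told apart.

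Young Treg and young Tconv differed at genes of several families. Of 9495 genes tested, 76 were called (0.8%), 47 higher in Treg (0.495%) and 29 lower (0.305%). Most of these calls ended under some other settings of edgeR. With the replicate number as a block 34 of the 76 were called, and 1 when the 4 young libraries were fitted alone. With other size factors (RLE) all 76 were called, and without the low-count filter 68 were. The higher set joined Foxp3, the interleukin 2 receptor alpha chain and its feedback inhibitors Cish and Socs2, the Ikaros factors Ikzf2 and Ikzf4 and 3 guanylate-binding proteins. The lower set joined Cd40lg, the T cell receptor signalling gene Themis, the phosphodiesterase gene Pde3b and the TGF-beta co-receptor gene Tgfbr3. Groups did not overlap at any of the 76 genes. Across all genes tested, Treg lay wholly above Tconv at 24.4% and wholly below at 24.9%, so lack of overlap by itself is common with 2 libraries a group. The median log2 fold change over all genes was 0.02. Counts of calls in the gene lists below stand against the shares over all genes tested, 0.495% higher and 0.305% lower.

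DESeq2 called 663 genes on the same counts (6.98%), which included all 76. The edgeR calls need both libraries of each group: without Tconv 1 or without Tconv 2 none of the 76 was called, without Treg 1 there were 6 and without Treg 2 there were 16. All 76 kept their direction in each of these fits, with log2 fold changes between 0.773 and 1.41 times those with all libraries. On the authors' deposited log2 values, limma gave smaller differences, at 0.232 to 0.779 times the edgeR values, and 15 of the 76 moved by over 1.5 times. The 2 Treg libraries differed from each other by over 2-fold at 1638 of the 9495 genes and the 2 Tconv libraries at 1019, while the 4 pairs of a Treg with a Tconv library differed at 1520, 1611, 1840 and 2236. Treg 1 was above Treg 2 at 36 of the 47 higher genes and 22 of the 29 lower ones. Tconv 2 was above Tconv 1 at 37 of the 47 higher genes and below it at 22 of the 29 lower ones, so that it lay nearer to Treg at those genes. These orders were not counted over all genes tested, so they are a description of the called genes only.

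**Figure D2:**
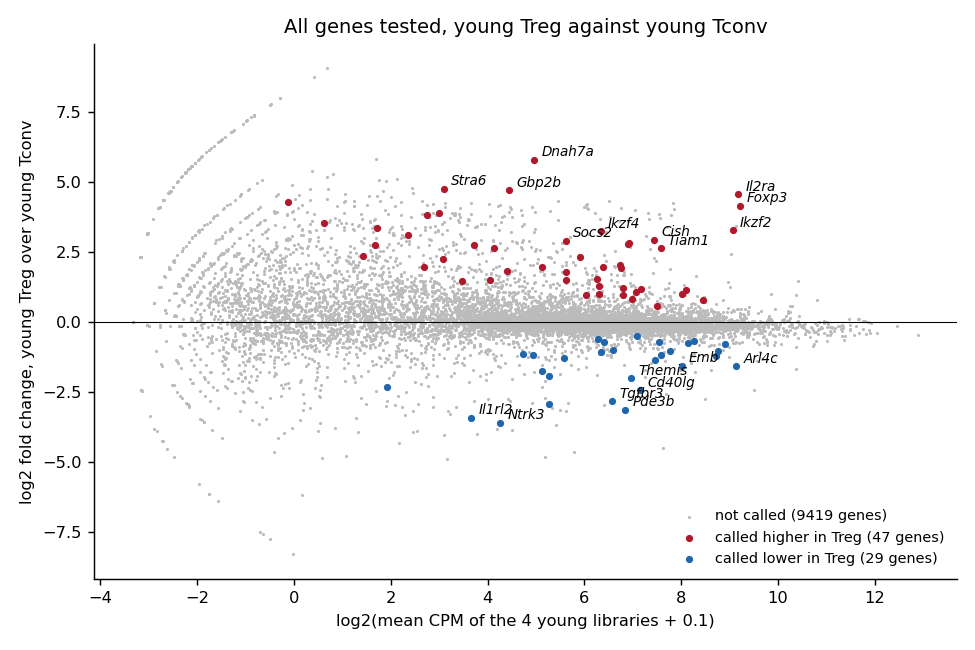
Log2 fold change of young Treg over young Tconv (vertical axis) against the mean level of the 4 young libraries (horizontal axis, log2 of mean CPM plus 0.1) for all genes tested. Red points are the 47 genes called higher in Treg and blue points the 29 called lower; grey points were not called, and large differences at low levels mostly fall among them.

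Binding letters for STAT5 and forkhead factors were looked for near the start sites of the called genes, since the leading genes join Foxp3 with the interleukin 2 pathway. RefSeq windows from 250 bases before to 50 bases after a start site (GRCm38.p6) were available for 38 of the 47 higher genes and 22 of the 29 lower genes. The STAT5 letters TTCNNNGAA, which read the same on both strands, stood in a window of 7 of those 38 genes (18.4%): Cish, Foxp3, Gbp5, Mdfic, Prodh, Pros1 and Trp53i11. Among lower genes they stood in 1 of 22 (4.55%), and among all tested genes with a window in 620 of 7461 (8.31%). The 3 stretches below were picked from genes called higher that had a match in a window. No match stood in the windows of Il2ra, Gbp3 and Gbp2b, which were also called higher, or in another window of Foxp3. Letters that match TTCNNNGAA are in capitals. The Cish stretch (chr9:107296654-107296683, plus strand) lies inside an annotated 5′ UTR. The Foxp3 stretch (chrX:7580233-7580482, plus strand) ends just before the RefSeq start site of its window. It lies within the annotated span of Foxp3 and overlaps an exon of the noncoding gene Flicr. The Gbp5 stretch (chr3:142496684-142496899, plus strand) ends where the annotated 5′ UTR begins.
Cish: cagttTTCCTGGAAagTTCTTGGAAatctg
Foxp3: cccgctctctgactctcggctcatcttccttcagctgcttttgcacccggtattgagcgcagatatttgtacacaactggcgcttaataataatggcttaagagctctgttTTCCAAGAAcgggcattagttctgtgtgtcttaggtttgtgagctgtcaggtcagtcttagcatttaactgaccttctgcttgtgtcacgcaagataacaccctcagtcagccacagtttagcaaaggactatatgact
Gbp5: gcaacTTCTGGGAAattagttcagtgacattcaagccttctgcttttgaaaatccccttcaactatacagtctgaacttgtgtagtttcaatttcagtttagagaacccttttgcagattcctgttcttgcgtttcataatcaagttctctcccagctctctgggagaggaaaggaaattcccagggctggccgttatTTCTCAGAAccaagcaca
Cish and Gbp5 each held 2 matches, those of Cish 2 bases apart, and Foxp3 held 1. The forkhead letters GTAAACA, searched on both strands, stood in the windows of 1 of the 38 higher genes, Gbp3, of 1 of the 22 lower genes, Otud1, and of 3.07% of tested genes. A match describes letters only, and binding was not measured in these libraries.

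Of the transcription factors, Foxp3 and the Treg-associated Ikaros factors Ikzf2 and Ikzf4 stood out. Foxp3 (chromosome X, 7573644 to 7595245 on GRCm38) was 17.8-fold higher in Treg, a log2 fold change of 4.15 (SE 0.59, edgeR adjusted p 0.0304). Ikzf2 was 9.68-fold higher (3.28, SE 0.51, edgeR adjusted p 0.0362). Ikzf4, which encodes Eos, a partner of Foxp3 in repression, was at 182 and 110 CPM in Treg and 13.7 and 17.5 CPM in Tconv. The groups lay far apart, and the gene was called (3.23, SE 0.53, edgeR adjusted p 0.0438). Ikzf1, the Ikaros factor of all lymphocytes, was at 668 and 717 CPM in Treg and 1224 and 1254 CPM in Tconv without being called (-0.84, edgeR adjusted p 0.227). Of the 4 tested Ikaros family members, 2 were thus called higher and 0 lower, against 0.495% and 0.305% of all genes tested.

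Among 14 tested genes for Foxp3 and its known partner factors, Foxp3 itself was the 1 call. The median of the list was 0.21. Among its members chosen after their values were seen, Irf4, a factor of activated Treg, was at 141 and 241 CPM in Treg and 42.7 and 75.6 CPM in Tconv (1.69, edgeR adjusted p 0.0639). Runx3, a binding partner of Foxp3, was at 60.2 and 77.9 CPM in Treg against 131 and 126 CPM in Tconv (-0.90, edgeR adjusted p 0.0631). Both had groups that did not overlap, and neither passed.

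Factors that keep T cells naive had no edgeR call among 13 tested genes, with a median of -0.40. DESeq2 called 2 of the 13, against 6.98% of all genes. At 10 of the 13, both Treg libraries lay below both Tconv libraries, as they did at 24.9% of all genes tested. Tcf7, which encodes TCF-1, was at 746 and 517 CPM in Treg and 2108 and 1958 CPM in Tconv (-1.69, SE 0.50, edgeR adjusted p 0.174). Its relative Lef1, named after its values were seen, was at 137 and 99.0 CPM against 408 and 366 CPM (-1.71, SE 0.44, edgeR adjusted p 0.131). Satb1, a chromatin organiser, was at 487 and 351 CPM against 1094 and 1112 CPM (-1.40, edgeR adjusted p 0.365). Id3 was the exception to the direction, at 64.0 and 63.5 CPM in Treg and 32.7 and 37.1 CPM in Tconv.

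Factors of the helper lineages likewise had no edgeR call among 11 tested genes (median 0.40), while DESeq2 called 2, against 6.98% of all genes. Hopx, a cofactor linked to induced Treg, was at 129 and 102 CPM in Treg and 28.3 and 32.7 CPM in Tconv (1.92, SE 0.39, edgeR adjusted p 0.0695). Maf was at 102 and 111 CPM against 59.3 and 53.0 CPM. Tbx21, the factor of type 1 helper cells, was at 7.30 and 13.5 CPM in Treg and 16.6 and 19.6 CPM in Tconv.

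The interleukin 2 pathway held 3 calls among 12 tested genes, all higher in Treg, as were 0.495% of all genes tested. At 7 of the 12 both Treg libraries lay above both Tconv libraries, as they did at 24.4% of all genes tested. At 2 of the 12 they lay below, as at 24.9% of all genes tested. Members were chosen with earlier results of these data known, so these counts are a description. Il2ra (chromosome 2, 11642807 to 11693193) was 23.4-fold higher (4.55, SE 0.41, edgeR adjusted p 0.00602), a difference that the sort on CD25 itself selected for. Cish, the STAT5-induced inhibitor whose start-site letters are shown above, was at 372 and 241 CPM in Treg and 39.6 and 40.4 CPM in Tconv. It was 7.67-fold higher in Treg (2.94, SE 0.37, edgeR adjusted p 0.0248). Socs2, of the same inhibitor family, was at 104 and 69.0 CPM against 6.62 and 16.7 CPM (2.90, SE 0.44, edgeR adjusted p 0.0362). Both inhibitors were higher in each Treg library than in either Tconv library.

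No other tested member of the receptor and its signalling chain was called. The receptor chain gene Il2rb was not tested, nor were Socs1 and Osm. Il2rg, the shared gamma chain, was at 1017 and 838 CPM in Treg and 1010 and 943 CPM in Tconv. Jak1 was at 1551 and 1258 CPM against 1825 and 1743 CPM, and Stat5b at 539 and 386 CPM against 478 and 431 CPM. The survival gene Bcl2 was at 555 and 336 CPM in Treg and 269 and 281 CPM in Tconv, and was not called. The related survival gene Bcl2l1 was in no list but was called, at 75.2 and 70.3 CPM against 22.01 and 29.4 CPM (2.83-fold, SE 0.18 on the log2 scale, edgeR adjusted p 0.0207).

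Molecules by which Treg suppress other cells had 1 call among 13 tested genes, of 21 asked for. Their median, 1.83, was the highest of the 27 gene lists. Members were chosen as Treg suppressor genes with earlier results of these data known, so this rank is a description. At 11 of the 13 both Treg libraries lay above both Tconv libraries, as they did at 24.4% of all genes tested. The call was Cd200, an inhibitory ligand, at 130 and 98.9 CPM in Treg and 37.2 and 41.5 CPM in Tconv (1.54, SE 0.21, edgeR adjusted p 0.0277). Ctla4, the inhibitory receptor central to Treg function, was at 1146 and 616 CPM in Treg and 168 and 157 CPM in Tconv, and did not pass (2.44, SE 0.57, edgeR adjusted p 0.102). The adenosine-producing enzyme gene Nt5e (CD73) was at 445 and 245 CPM against 102 and 86.7 CPM (1.87, edgeR adjusted p 0.291). Gpr83, a receptor gene enriched in Treg, was at 219 and 126 CPM against 12.2 and 13.4 CPM (3.75, SE 1.07, edgeR adjusted p 0.161).

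Other suppressor genes were named after their values were seen. Entpd1 (CD39) was at 67.3 and 106 CPM in Treg and 10.7 and 23.5 CPM in Tconv (2.34, edgeR adjusted p 0.0695). Itgb8, an integrin chain that activates latent TGF-beta, was at 30.3 and 18.8 CPM against 2.30 and 2.37 CPM (3.39, edgeR adjusted p 0.0787). Havcr2, which encodes TIM-3, was the 1 member with a log2 fold change below 0, at 6.92 and 19.6 CPM in Treg and 13.2 and 32.1 CPM in Tconv. Il10 was low in all 4 libraries, at 13.1 and 10.99 CPM in Treg and 3.10 and 3.69 CPM in Tconv. DESeq2 passed Ctla4, Entpd1, Itgb8 and Gpr83, while edgeR passed none of these 4.

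**Figure D3:**
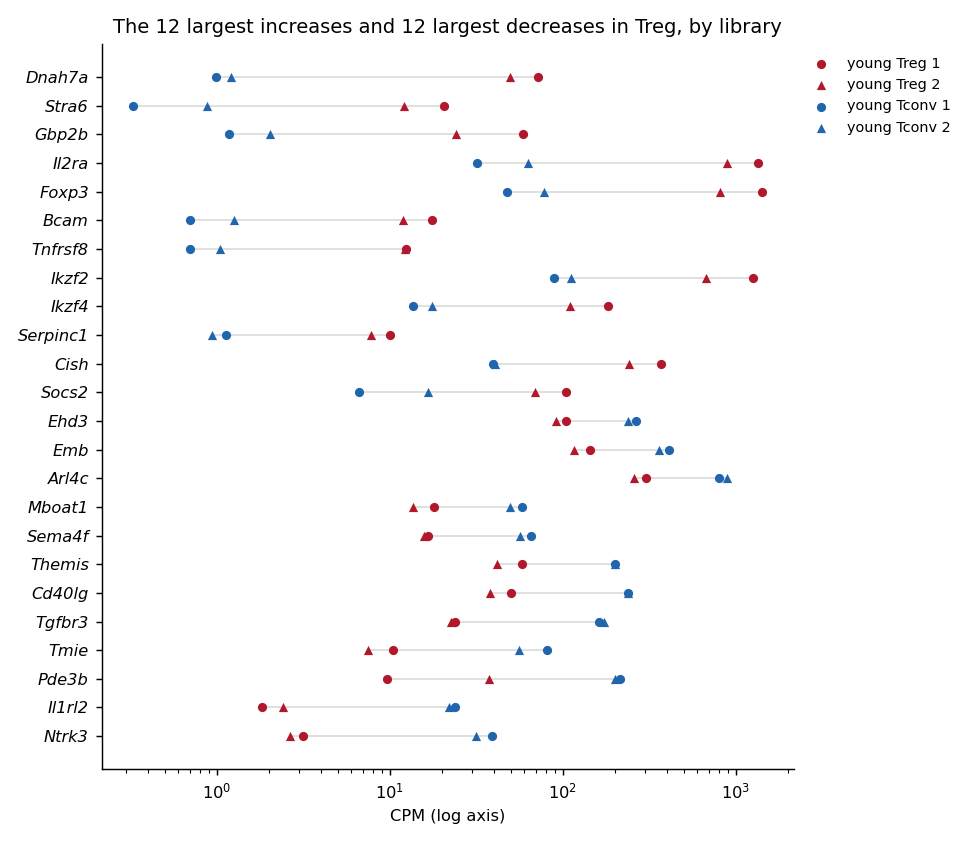
Level in CPM (log axis) in each young library of called genes averaging 4 CPM or more, 12 with the greatest increase in Treg above 12 with the greatest decrease (rows); red marks Treg, blue Tconv, circles library 1 and triangles library 2. Only genes whose groups did not overlap were eligible, which held for all 76 called genes, so red and blue separate in every row by that rule. Rows run from Dnah7a (72.2 and 49.8 against 0.986 and 1.21 CPM) to Ntrk3 (3.15 and 2.64 against 38.8 and 31.6 CPM).

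Receptors of the TNF family had 1 call among 17 tested genes (median 0.37). Tnfrsf8, which encodes CD30, was at 12.4 and 12.2 CPM in Treg and 0.704 and 1.04 CPM in Tconv (3.81, SE 0.38, edgeR adjusted p 0.0114). Its Treg libraries lay close together, above both Tconv libraries. Tnfrsf18 (GITR), a classic Treg receptor, was at 304 and 225 CPM in Treg and 76.5 and 81.5 CPM in Tconv (1.74, edgeR adjusted p 0.154). Tnfrsf4 (OX40), named after its values were seen, was at 312 and 242 CPM against 29.99 and 36.5 CPM (3.06, edgeR adjusted p 0.0793). Tnfrsf1b, the receptor TNFR2, was at 485 and 471 CPM against 127 and 181 CPM (1.64, edgeR adjusted p 0.237). Cd40, a B cell and myeloid receptor, was at 1.18 and 44.3 CPM in Treg and 1.41 and 9.35 CPM in Tconv, following the B cell markers above.

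Of 9 TNF family ligands tested, Cd40lg (chromosome X, 57212143 to 57224042) was the 1 call. It fell by 2.45 on the log2 scale (SE 0.20, edgeR adjusted p 0.00602), and its Tconv libraries lay close together. The median of the family was 0.75, with 7 of 9 members above 0. Tnfsf8, the ligand of CD30, also lay lower in both Treg libraries, at 80.8 and 52.9 CPM against 94.8 and 87.6 CPM, and was not called. Lta was at 121 and 96.5 CPM in Treg and 34.1 and 34.4 CPM in Tconv (1.66, edgeR adjusted p 0.0642). Tnfsf10 (TRAIL) was at 119 and 85.0 CPM against 60.0 and 61.4 CPM (0.75, edgeR adjusted p 0.202).

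Costimulatory and inhibitory receptors had no edgeR call among 13 genes (median 0.18), while DESeq2 called 2, against 6.98% of all genes. Cd28 was at 444 and 261 CPM in Treg and 503 and 423 CPM in Tconv. Klrg1, a marker of differentiated Treg named after its values were seen, was at 31.8 and 38.3 CPM against 5.26 and 6.55 CPM (2.57, edgeR adjusted p 0.12). Chemokine receptors and egress genes had no call among 9 genes (median -0.45). Ccr7, which guides naive cells into lymphoid tissue, was at 296 and 300 CPM in Treg and 679 and 760 CPM in Tconv (-1.27, edgeR adjusted p 0.563). S1pr1, which guides cells out, was at 472 and 404 CPM against 742 and 717 CPM (-0.74, edgeR adjusted p 0.605).

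Adhesion genes had 1 call among 17 (median 0.10). Bcam, a laminin receptor gene, was at 17.6 and 11.9 CPM in Treg and 0.704 and 1.26 CPM in Tconv (3.90, SE 0.44, edgeR adjusted p 0.0181). Itgae (CD103), named after its values were seen, was at 167 and 146 CPM in Treg and 12.5 and 21.2 CPM in Tconv, and missed the threshold (3.22, SE 0.64, edgeR adjusted p 0.0642). Itgb3 ran the other way at 90.9 and 84.8 CPM against 242 and 243 CPM (-1.47, edgeR adjusted p 0.211). Itgb5 was at 2.87 and 58.7 CPM in Treg and 0.610 and 3.96 CPM in Tconv, a pattern like that of the macrophage markers.

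The list of neuropilins, semaphorins and plexins also held Ntrk3, which belongs to none of these families. It had 2 calls among 14 genes, both lower in Treg (median 0.23). Of the families themselves only Sema4f was called. Members were chosen with earlier results of these data known, so the count of calls is a description. Ntrk3, a neurotrophin receptor gene, was at 3.15 and 2.64 CPM in Treg and 38.8 and 31.6 CPM in Tconv, the greatest decrease among called genes (-3.60, SE 0.55, edgeR adjusted p 0.0362). Sema4f was at 16.6 and 15.8 CPM against 65.7 and 57.0 CPM (-1.92, SE 0.33, edgeR adjusted p 0.0475). Sema4a, a further class 4 semaphorin, was at 64.9 and 59.6 CPM against 260 and 223 CPM without passing (-1.95, edgeR adjusted p 0.0779). Sema4d, of the same class, was at 511 and 437 CPM in Treg and 404 and 392 CPM in Tconv.

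Cytokine receptors held 1 call in each direction among 16 genes (median 0.28). Il10rb, a chain of the interleukin 10 receptor, was at 158 and 164 CPM in Treg and 85.0 and 100 CPM in Tconv (0.80, SE 0.12, edgeR adjusted p 0.0362). Its partner chain Il10ra, named after its values were seen, was at 230 and 337 CPM against 93.3 and 158 CPM (1.17, edgeR adjusted p 0.13). Il1rl2, the receptor for interleukin 36, was at 1.84 and 2.42 CPM in Treg and 23.8 and 22.2 CPM in Tconv. Each Treg library was well below each Tconv library (-3.43, SE 0.37, edgeR adjusted p 0.0155). Il1rl1 (ST2), the interleukin 33 receptor of tissue Treg, had values of 38.8 and 32.3 CPM against 9.01 and 10.9 CPM (1.83, edgeR adjusted p 0.0793).

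Helper cytokines were at low levels, and none of 14 tested was called by edgeR, while DESeq2 called 2, against 6.98% of all genes. Their median was -0.97, but it turned to 0.16 without Treg 1 and was -3.02 without Treg 2. Il21, named after its values were seen, was at 1.51 and 0.909 CPM in Treg and 9.10 and 5.89 CPM in Tconv (-2.63, edgeR adjusted p 0.084). Lif, a cytokine of the interleukin 6 family, was at 12.01 and 13.1 CPM against 1.69 and 3.25 CPM (2.35, edgeR adjusted p 0.21). Il2 itself was at 0.377 and 0.866 CPM in Treg and 2.30 and 1.65 CPM in Tconv.

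The TGF-beta receptor list had 1 call in each direction among 16 genes (median -0.19), and the 2 called receptors moved apart. Tgfbr1, the signalling type I receptor, was at 188 and 174 CPM in Treg and 80.0 and 92.6 CPM in Tconv (1.07, SE 0.18, edgeR adjusted p 0.0438). Tgfbr3, the co-receptor betaglycan, was at 23.9 and 22.8 CPM against 161 and 173 CPM (-2.84, SE 0.47, edgeR adjusted p 0.0443). The Treg libraries lay close together at Tgfbr3 and far below Tconv. The inhibitory SMAD gene Smad7 was at 149 and 109 CPM in Treg and 223 and 218 CPM in Tconv and was not called.

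T cell receptor signalling genes had 1 call among 23, and 19 of the 23 had a log2 fold change below 0 (median -0.37). Themis (chromosome 10, 28668360 to 28883818), a regulator of T cell receptor signal strength in the thymus, was at 58.3 and 41.6 CPM in Treg and 201 and 201 CPM in Tconv. It fell by 2.01 on the log2 scale (SE 0.17, edgeR adjusted p 0.00602). Cd4, on which both populations were sorted, was at 1094 and 760 CPM in Treg and 1782 and 1675 CPM in Tconv (-0.90, edgeR adjusted p 0.253). The summed T cell markers were lowest in Treg 2, at 3020 CPM, the library with the most B cell and macrophage transcripts.

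Cyclic AMP and adenosine genes had 1 call among 16 (median 0.04). Pde3b, a phosphodiesterase that degrades cyclic AMP, was at 9.61 and 37.4 CPM in Treg and 213 and 201 CPM in Tconv (-3.14, SE 0.53, edgeR adjusted p 0.0446). Treg 2 lay well above Treg 1 and still far below both Tconv libraries. Rapgef4, a cyclic AMP sensor gene named after its values were seen, was at 32.5 and 31.9 CPM against 138 and 102 CPM (-1.90, edgeR adjusted p 0.236). Pde4b and Pde4d had values of 140 and 192 CPM and of 109 and 60.1 CPM in Treg, with 224 and 241 CPM and 167 and 149 CPM in Tconv.

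Guanylate-binding proteins, GTPases induced by interferon, had 3 calls among 10 genes, all higher in Treg, and a median of 1.03. Of all genes tested 0.495% were called higher. Gbp3 was at 261 and 161 CPM in Treg and 27.9 and 32.0 CPM in Tconv (2.82, SE 0.37, edgeR adjusted p 0.0277). Gbp5 was at 192 and 153 CPM against 44.3 and 46.4 CPM (1.93, SE 0.32, edgeR adjusted p 0.0437), and Gbp2b at 58.9 and 24.2 CPM against 1.17 and 2.04 CPM (4.69, SE 0.80, edgeR adjusted p 0.049). Gbp4, Gbp8 and Gbp9 overlapped between the groups, with Gbp4 at 660 and 385 CPM in Treg and 539 and 459 CPM in Tconv. Gbp11 lay lower in both Treg libraries, at 7.39 and 3.55 CPM against 16.2 and 13.6 CPM, without being called (-1.44, edgeR adjusted p 0.317). These genes share sequence, so the split of reads between them is uncertain. The wider set of 23 interferon-induced genes had no call and a median of -0.01. Irf1, a factor of that response, was at 500 and 399 CPM in Treg and 476 and 434 CPM in Tconv.

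Reactive oxygen genes had 1 call in each direction among 27 (median 0.15). Ncf4, a cytosolic subunit of the NADPH oxidase, was at 143 and 152 CPM in Treg and 77.6 and 73.6 CPM in Tconv (0.96, SE 0.15, edgeR adjusted p 0.0362). The subunit genes Cybb and Ncf1 were instead far higher in Treg 2 than in Treg 1, with Cybb at 66.7 and 306 CPM in Treg and 41.0 and 116 CPM in Tconv, a pattern like that of the macrophage markers. Prdx6, a peroxiredoxin gene, was at 151 and 134 CPM against 229 and 236 CPM (-0.71, SE 0.12, edgeR adjusted p 0.0497). Noxa1, an oxidase activator gene named after its values were seen, was at 9.42 and 7.70 CPM against 0.329 and 0.550 CPM and missed the threshold (4.27, edgeR adjusted p 0.0575).

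The remaining lists had no edgeR call. DESeq2 called 4 of the 18 activation genes and 1 each of the 19 effector and memory and the 20 cell division genes. It also called 1 of 5 genes of the Dcaf1 ubiquitin ligase. Of the 63 ribosomal protein genes, 16 glycolysis genes and 7 cell cycle inhibitors it called 0. Over all genes DESeq2 called 6.98%. Of 20 cell division genes 16 had a log2 fold change above 0 (median 0.72), but Top2a was at 63.5 and 157 CPM in Treg and 41.0 and 75.7 CPM in Tconv, so that Treg 1 lay between the Tconv libraries. Of 63 ribosomal protein genes 53 lay lower in both Treg libraries than in both Tconv libraries, as did 24.9% of all genes tested. The median over all 63 was -0.24. Pseudogene copies make single members uncertain. The 16 glycolysis genes had a median of 0.15, the 19 effector and memory genes -0.06, the 18 activation genes 0.07 and the 7 cell cycle inhibitors 0.25. Among genes of these lists named after their values were seen, Capg was at 300.2 and 282 CPM in Treg against 58.0 and 71.1 CPM (2.17, edgeR adjusted p 0.093), Myc at 248 and 201 CPM against 113 and 116 CPM (0.98, edgeR adjusted p 0.0579) and the phosphatase gene Dusp4 at 59.6 and 49.9 CPM against 9.15 and 9.08 CPM (2.59, edgeR adjusted p 0.084). Igfbp4, high in naive cells, was at 120 and 67.1 CPM against 642 and 609 CPM (-2.74, SE 1.67, edgeR adjusted p 0.493). Dcaf1 (named Vprbp in the table), the gene targeted in the labelled mice, was at 144 and 128 CPM in Treg and 147 and 144 CPM in Tconv.

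**Figure D4:**
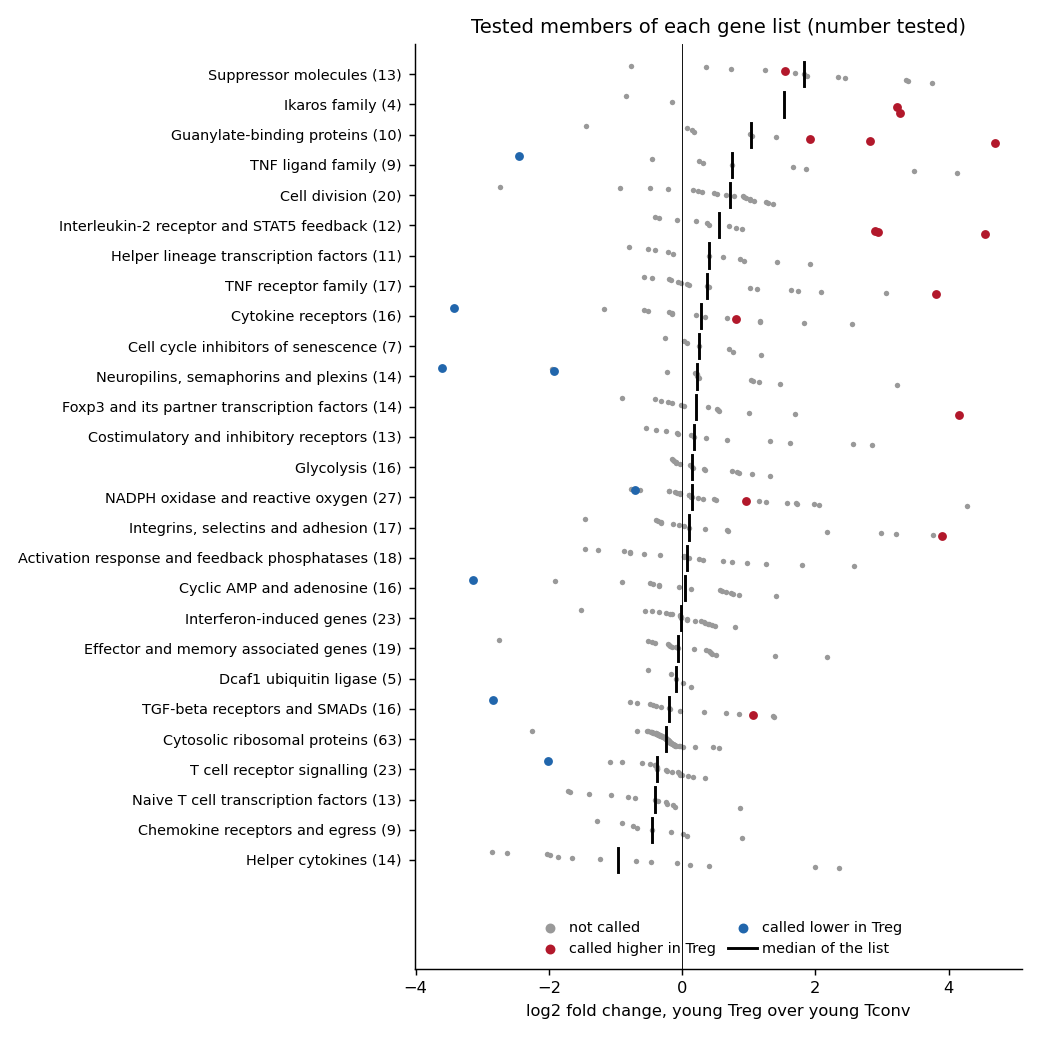
Log2 fold change of young Treg over young Tconv for each tested member of the 27 gene lists, with the number tested in parentheses; red points were called higher in Treg, blue points called lower, grey points not called, and black bars are list medians. Suppressor molecules have the highest median at 1.83 with 1 call, while guanylate-binding proteins and the interleukin 2 pathway hold 3 calls each. Of all genes tested 0.495% were called higher and 0.305% lower. The lists were chosen with earlier results of these data known.

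Most called genes stood outside the lists, which held 15 of the 47 higher and 8 of the 29 lower genes. The largest increase was Dnah7a, an axonemal dynein heavy chain gene, at 72.2 and 49.8 CPM in Treg and 0.986 and 1.21 CPM in Tconv (5.79, SE 0.49, edgeR adjusted p 0.00602). Its sequence is shared with close Dnah7 copies, which makes its own count uncertain. Stra6, the receptor for retinol-binding protein, was at 20.6 and 12.2 CPM against 0.329 and 0.880 CPM (4.76, SE 0.73, edgeR adjusted p 0.0362). Serpinc1, which encodes antithrombin, was at 10.1 and 7.83 CPM against 1.13 and 0.935 CPM (3.11, SE 0.48, edgeR adjusted p 0.0362). Each of these genes was near 1 CPM or below in Tconv, and the Treg libraries stood clear of it.

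The largest decreases outside the lists began with Tmie, a gene known from the hair cell transduction channel, at 10.5 and 7.49 CPM in Treg and 80.8 and 56.0 CPM in Tconv (-2.93, SE 0.41, edgeR adjusted p 0.0304). Among well-expressed genes, Arl4c, a small GTPase of the ARF family, was at 305 and 259 CPM against 806 and 891 CPM (-1.59, SE 0.22, edgeR adjusted p 0.0294). Emb, which encodes embigin, a partner of lactate transporters, was at 143 and 117 CPM against 413 and 362 CPM (-1.58, SE 0.17, edgeR adjusted p 0.0155). Ehd3, of endosomal recycling, was at 104 and 91.2 CPM against 267 and 238 CPM, and Mboat1, a lysophospholipid acyltransferase, at 18.1 and 13.7 CPM against 58.4 and 49.9 CPM. At all 5 genes the Tconv libraries lay above both Treg libraries, which the rule that named them required.

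Further called genes are described here one by one, after their values were seen and with no list behind them. Tiam1, an activator of Rac, was at 384 and 273 CPM in Treg and 47.4 and 59.0 CPM in Tconv (2.63, edgeR adjusted p 0.0362). Vav2, of the same activator class, was at 109 and 158 CPM against 24.1 and 44.0 CPM (1.97, edgeR adjusted p 0.0381), while Prex1, a further Rac activator, was lower in Treg at 335 and 373 CPM against 592 and 618 CPM (-0.77, edgeR adjusted p 0.0362). Pou2f2, the lymphoid factor Oct-2, which B cells also express, was at 152 and 191 CPM in Treg and 38.1 and 46.1 CPM in Tconv (2.03, SE 0.17, edgeR adjusted p 0.00602). The part of B cell transcripts in this difference was not tested. Pdk1, a pyruvate dehydrogenase kinase, was at 299 and 209 CPM against 602 and 582 CPM (-1.22, edgeR adjusted p 0.049).

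The same cell types were sequenced from aged wild-type mice and from mice labelled Dcaf1-deficient, which share no library with the young comparison, although all were fitted together. These libraries carry doubts of their own. Dcaf1 was at 102 and 101 CPM in labelled Treg, against 144 and 128 CPM in young and 105 and 127 CPM in aged Treg. It was at 132 CPM in both labelled Tconv libraries, against 147 and 144 CPM in young and 117 and 90.5 CPM in aged Tconv. The ribosomal protein gene Rpl29 separated groups: labelled Treg held 34.0 and 31.5 CPM and young Treg 744 and 717 CPM, while the library titled aged Treg 1 held 92.7 CPM and aged Treg 2 438 CPM. Aged Treg 1 therefore stood nearer to the labelled libraries at this gene, and values without it are given beside those with it.

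In the labelled mice all 76 young calls kept their direction. Over all genes tested, 51.1% had a log2 fold change above 0 in these mice and 48.8% below 0. Of the 47 higher genes 19 were called higher there, where 0.874% of all genes were, and of the 29 lower genes 25 were called lower, where 1.35% of all genes were; in all 2.22% of genes were called. These calls rest on both libraries of each labelled group: without any 1 of the 4, 0 to 1 of the 47 and 1 to 2 of the 29 were called, and DESeq2 called 42 and 28. Their median log2 fold change was 1.37 for the higher set against 2.23 in the young, and -1.49 for the lower set against -1.22; the young values chose the genes, so these medians are a description. No gene passed an edgeR test of the change in the difference with the label, while 260 of all 9495 genes had an unadjusted p below 0.05 and DESeq2 called 1. Foxp3 itself was at 625 and 535 CPM in labelled Treg and 80.8 and 75.7 CPM in labelled Tconv (2.89), against 4.15 in the young.

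In aged mice 41 of the 47 higher genes and all 29 lower genes kept their direction, and without aged Treg 1 these were 41 and 28. Over all genes tested, with all libraries, 46.4% had a log2 fold change above 0 in aged mice and 53.5% below 0. Called in the same direction were 11 of the 47, against 0.295% of all genes, and 12 of the 29, against 0.527%; in all 0.821% of genes were called. Without aged Treg 1 these counts were 12 and 10. DESeq2, whose total over all genes in aged mice is given in the closing section, called 25 of the 47 and 25 of the 29. The median of the higher set was 0.92 (1.16 without aged Treg 1) and that of the lower set -0.80 both with and without it. Genes called in the same direction in young, aged and labelled mice alike numbered 7 higher and 11 lower. The 7 higher were Il2ra, which encodes the sort marker CD25, with Dnah7a, Alpl, Bcl2l1, Fam109b, Sh3bgrl and Trp53i11. Among the 11 lower were Cd40lg, Themis, Ntrk3, Tmie, Mboat1 and Ehd3. These shared calls carry the limits of the labelled libraries given above, and in aged mice the 11 higher calls were 6 without aged Tconv 2 and 6 with the replicate block.

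Some genes of the young difference had high levels in aged Tconv. Foxp3 was at 746 and 1986 CPM in aged Treg and at 334 and 675 CPM in aged Tconv, so that its log2 fold change was 1.44. Ikzf2 was at 655 and 1942 CPM in aged Treg and 673 and 773 CPM in aged Tconv, where the groups overlapped. Tiam1 was at 202 and 523 CPM in aged Treg and 353 and 392 CPM in aged Tconv. Il2ra had a log2 fold change of 4.57 in aged and 4.55 in young mice, but a sort of Treg on CD25 itself selects for this difference. Ntn1, which encodes netrin 1, was called in both comparisons in opposite directions, at 18.7 and 13.5 CPM in young Treg against 5.54 and 6.22 CPM in young Tconv, and at 4.54 and 4.37 CPM in aged Treg against 15.1 and 16.02 CPM in aged Tconv. The test of the change with age did not pass for Ntn1 in edgeR (-3.25, adjusted p 0.0626) and passed in DESeq2 (adjusted p 2.96e-15).

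Over all genes the edgeR test of the change of the difference with age called 0, with 615 genes at an unadjusted p below 0.05, and DESeq2 called 134 (1.41%). Among the 76 young calls 24 were called by DESeq2, Foxp3, Ikzf2, Bcam, Tnfrsf8 and Tiam1 among them. Those 76 genes were chosen for a large difference in the young libraries, which also enter this test, so these counts are a description.

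**Figure D5:**
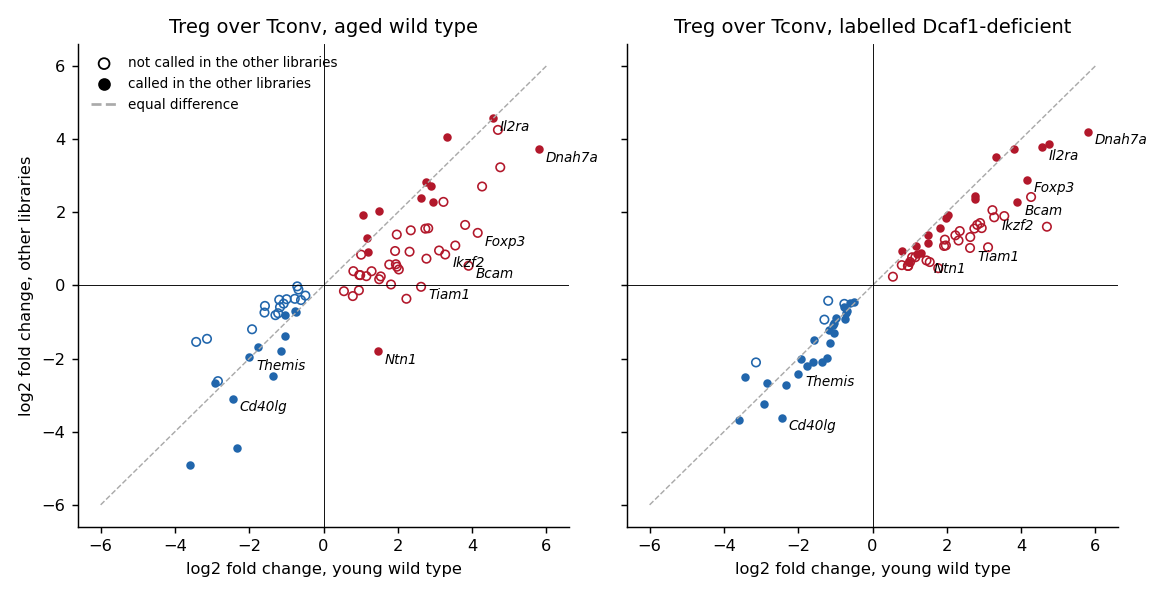
Log2 fold change of Treg over Tconv in aged mice (left) and in mice labelled Dcaf1-deficient (right) against that in young mice, for the 76 genes called in the young; red genes were higher and blue genes lower in young Treg, filled points were also called in the other libraries, and the dashed line marks equal differences. All 76 points keep their sign on the right, while 6 red points fall below 0 on the left, of which Ntn1 at -1.80 was called.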

How the data were processed

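Splenic Treg and Tconv were profiled by poly(A) RNA sequencing in 12 libraries, 2 in each of 6 groups. The authors deposited estimated counts per gene, made with Salmon 0.9.1 on mm10 per the submitters' processing notes; the transcript annotation is not given in the sources used here, and 23.5% of count values are whole numbers. They also deposited log2 values, whose transform is not stated, with DESeq2 named in the submitters' processing notes. The counts were rounded, and totals per library were 18358477 to 26852448. Genes passing filterByExpr (minimum count 10) numbered 9495, and 1991 were removed; 18 rows bore names turned into dates. R 4.3.3 and edgeR 4.0.16 (TMM factors, quasi-likelihood fit, 6 residual degrees of freedom, Benjamini-Hochberg threshold 0.05) gave the results; an SE is the log2 fold change divided by the square root of F. DESeq2 1.42.0 on counts and limma 3.58.1 on the deposited log2 values were alternatives, and the fit was tested on simulated data. Named genes were the 12 greatest increases and 12 greatest decreases among called genes with at least 4 CPM on average and no overlap, called members of 27 lists (445 of 561 genes asked for were in the table), the 4 highest uncalled members of each list, and Foxp3, Il2ra, Ikzf2, Ikzf4, Cd40lg, Ctla4, Socs2 and Dcaf1; Il7r was not analysed here. Members and lists were chosen with earlier results of these data known. Gene positions are from the mouse GRCm38 annotation (mm10), and start-site sequences are from RefSeq. Some list members are not reported here by name, though they count in the list totals.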

Additional observations from a re-analysis of the deposited data

How the results depend on the processing

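With all 47 higher and 29 lower genes keeping their direction under each alternative run, the counts of calls still varied. DESeq2 gave 383 higher and 280 lower, limma on the deposited log2 values 78 and 64, the 4 young libraries alone 0 and 2, and the libraries without Treg 2 and Tconv 2 gave 1 and 1. Leaving out 1 young library gave 0 to 14 higher and 0 to 7 lower; both were 0 without Tconv 1 or without Tconv 2. Other size factors, no low-count filter and a minimum log2 fold change of 1 stayed within 1.5 times. With the replicate block there were 29 higher and 11 lower, 34 of the 76 calls kept, and 50 genes called in aged mice against 78. Libraries with the same number deviated together with r = 0.677 in young, 0.271 in aged and 0.0414 in labelled mice, across genes, and the labels do not say that numbers mark a shared animal or day. In aged mice DESeq2 called 971 genes and leave-outs 129 to 359; in labelled mice DESeq2 called 1452 against 211, and leave-outs 2 to 3. For the change with age DESeq2 called 134 and leave-outs 0 to 112, the highest without aged Tconv 1 and 9 without aged Treg 2; for the change with the label DESeq2 called 1. In leave-outs the lone library is assumed to vary like the other groups. The cause of these shifts was not tested.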
